A study of Mus musculus with 121 samples.

Results

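The MHC class I and class II genes were measured as 10 members of a table of 24412 genes. The members were chosen by hand for their roles in antigen presentation. H2-Aa, H2-Ab1 and H2-Eb1 encode chains of the class II molecules, and Cd74 encodes the invariant chain that fills their groove until a peptide is loaded. Ciita encodes the transactivator that switches class II genes on, and H2-DMa and H2-DMb1 encode the pair of proteins that exchange the peptide. H2-K1 and H2-D1 encode class I heavy chains, and B2m encodes the light chain that all class I molecules need.

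Class II molecules show peptides from engulfed protein to helper T cells, and in the brain they are found mostly on macrophages of the meninges and vessels, on dendritic cells and on activated microglia. Class I molecules show peptides from the inside of the cell to killer T cells, and most cell types can make them, neurons at low levels. Interferon gamma raises both classes, class II through Ciita and class I in large part through Nlrc5.

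The study raised the expression of Gdnf, a growth factor of dopamine neurons, from its own locus in mice with a conditional knock-up (cKU) allele that Cre recombinase switches on. RNA sequencing of bulk tissue covered the prefrontal cortex (PFC), the striatum (STR) and the substantia nigra (SN) of adult males on a mixed 129Ola/ICR/C57bl6 background. In the AAV-Cre model, mice of all genotypes received AAV-Cre in both striata at 3 to 5 months of age, and tissue was taken at 5 to 7 months. In the Nestin-Cre model, Cre came from a Nestin-Cre transgene, the mice were not injected, and the labels of all libraries give an age of 2 months. Genotypes were wt/wt (WT), wt/cKU (HET) and cKU/cKU (HOM). The AAV-Cre groups of WT, HET and HOM mice had 7, 7 and 8 libraries in PFC, 7, 7 and 7 in STR, and 7, 7 and 8 in SN. The Nestin-Cre groups had 8, 6 and 4 libraries in PFC, 6, 7 and 6 in STR, and 6, 7 and 6 in SN. No group received an injection without Cre, so injection, virus, age and source of Cre cannot be told apart between the models. Differences among the mice themselves, seen in H2-D1 and in H2-Eb1 relative to H2-Aa, cannot be told apart from the models either. In bulk tissue, fewer cells of a type and less RNA per cell cannot be told apart either.

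The 65 AAV-Cre libraries came from 22 mice and the 56 Nestin-Cre libraries from 21 mice. Total counts per library ran from 9869584 to 26750905 with a median of 17885830, so that a single count stood for 0.101 cpm (counts scaled to the library total) in the shallowest library and 0.0374 cpm in the deepest. Gdnf in STR had a median of 6.74 cpm in AAV-Cre WT, 7.37 in HET and 8.67 in HOM mice, and of 5.98, 5.67 and 6.65 cpm in the Nestin-Cre groups. The difference of HOM from WT was 0.40 ± 0.09 on the log2 scale with an adjusted p of 0.504 in AAV-Cre mice and 0.28 ± 0.19 with an adjusted p of 0.784 in Nestin-Cre mice. The summed markers of each region were highest in the libraries labelled with it, with PFC markers at 1595 to 2103 cpm in WT libraries of PFC and at most 294 cpm in other WT libraries. Striatum markers summed to 4621 to 7204 cpm in STR of WT mice and to at most 1058 cpm elsewhere, in PFC of mouse M3649. Substantia nigra markers summed to 2356 to 4832 cpm in SN of WT mice, against 40.3 to 80.3 cpm in STR of AAV-Cre WT mice. The labels of mouse M4575 conflict, with WT for its PFC library and HOM for its other libraries, and each was kept in its labelled group but not paired with PFC in the relations across regions of a mouse. Ttr, the leading transcript of choroid plexus, was above 1000 cpm in 9 libraries, among them STR of the AAV-Cre WT mice M3585 at 7671 cpm and M3588 at 5441 cpm.

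Per kilobase of counted exon, B2m was the most abundant member, with a median of 90.0 cpm per kb over all libraries and a range of 48.7 to 269.8. H2-D1 followed with a median of 20.0 (5.96 to 74.4) and H2-K1 with 18 (7.37 to 54.7), then H2-DMa with 8.15 (2.72 to 20.9). Cd74 had a median of 6.27 (0.941 to 83.8), H2-Aa of 4.30 (0.498 to 51.7) and H2-Ab1 of 2.36 (0.150 to 30.5). The ranges of all neighbours in this order overlapped. H2-Eb1 had a median of 1.61 (0.113 to 27.7) and H2-DMb1 of 1.29 (0.123 to 3.22). Ciita was near the limit of detection, with 0 to 30 counts per library, 0 counts in 14 libraries and at least 1 cpm in 3. It therefore passed the filter of none of the fits used for the comparisons between groups, which tested 9 of the 10 members. Across the 18 groups, the highest median was 22.8 times the lowest for H2-Aa, 17.3 for H2-Ab1, 13.3 for H2-Eb1, 15.4 for Cd74 and 19.6 for Ciita, 5.21 for H2-D1, 3.10 for B2m and 2.36 for H2-K1, and 3.62 for H2-DMa and 3.85 for H2-DMb1.

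In the mm10 build, 7 members lay on chromosome 17: H2-K1 at 33996012 to 34000347, H2-DMa at 34122832 to 34139101, H2-DMb1 at 34153191 to 34160229, H2-Ab1 at 34263227 to 34269418, H2-Aa at 34282751 to 34287771, H2-Eb1 at 34305867 to 34316674 and H2-D1 at 35263094 to 35267497. Ciita lay on chromosome 16 at 10480072 to 10527640 and B2m on chromosome 2 at 122147687 to 122153082. The annotation of H2-D1 shares 358 of its 1034 exonic bases, or 34.6%, with the neighbouring heavy-chain gene H2-L, so H2-D1 counts may hold or lack reads of H2-L.

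**Figure D1:**
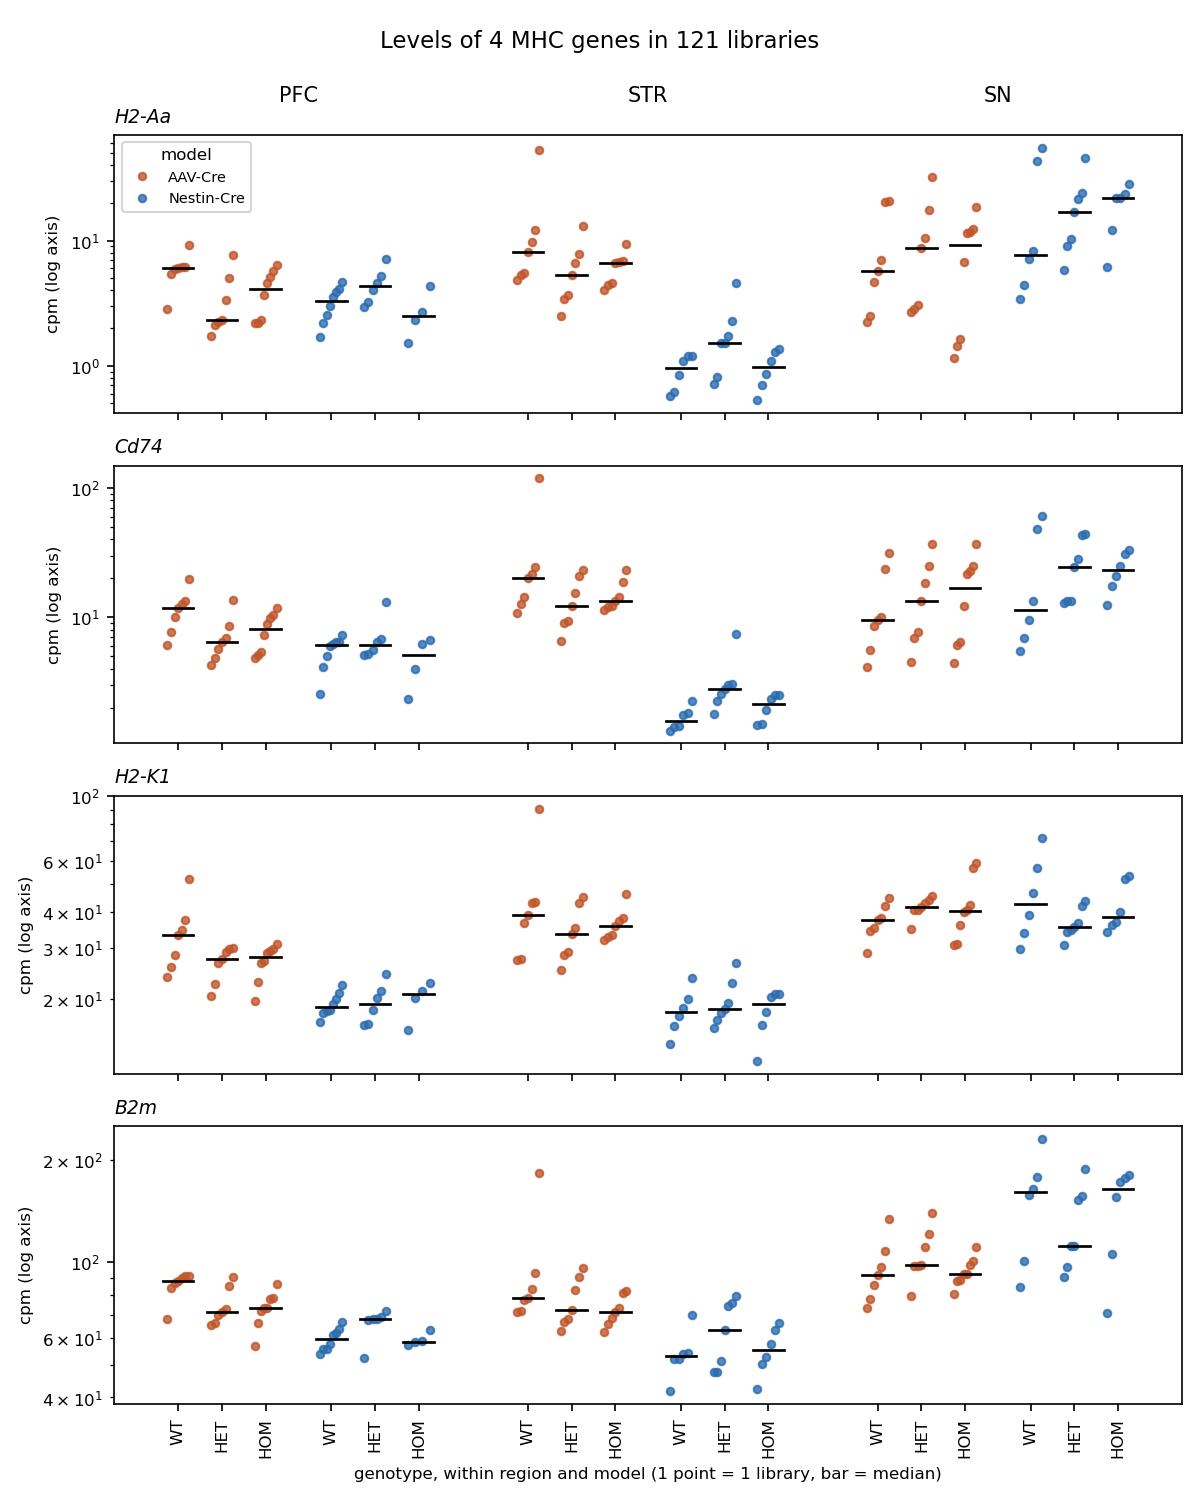
Levels of H2-Aa, Cd74, H2-K1 and B2m in cpm on a log axis, for the 18 groups of region, model and genotype; each point is a library and each bar the group's median. H2-Aa spans group medians that differ by 22.8 times, and H2-K1 medians that differ by 2.36 times.

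The first comparison asked how the striatum that received the virus differed from the uninjected striatum. In WT mice, whose Gdnf alleles Cre cannot switch on, transcripts of the class II chains and of their invariant chain were many times higher in the AAV-Cre than in the Nestin-Cre striatum. Class I transcripts were higher as well, by smaller factors. Of the peptide-exchange genes, H2-DMb1 was called slightly higher, a call that several omissions ended, and H2-DMa was not called; their difference was not tested. H2-Aa ran from 4.81 to 53.4 cpm (median 8.15) in the 7 AAV-Cre libraries and from 0.577 to 1.20 cpm (median 0.965) in the 6 Nestin-Cre libraries. H2-Ab1 ran from 3.58 to 36.4 cpm (median 5.82) against 0.512 to 0.953 cpm (median 0.704). Cd74 ran from 10.7 to 119 cpm (median 20.1) against 1.33 to 2.26 cpm (median 1.59). For these 3 genes the groups did not overlap, as for 20.3% of all genes (59.7% were called), and mouse M3677 gave the highest AAV-Cre value of each, with the next mouse at 12.2 cpm for H2-Aa and 24.3 cpm for Cd74. H2-Eb1 ran from 0.586 to 17.8 cpm (median 4.42) against 0.533 to 1.49 cpm (median 1.04), with 6 of 7 AAV-Cre libraries above every Nestin-Cre library. Ciita, too low to test, ran from 0.0586 to 1.47 cpm against 0 to 0.0596 cpm, and 6 of 7 AAV-Cre libraries lay above every Nestin-Cre library.

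Among class I genes, H2-D1 ran from 18.1 to 76.9 cpm (median 23.3) in AAV-Cre striatum and from 6.40 to 9.05 cpm (median 7.40) in Nestin-Cre striatum. H2-K1 ran from 27.3 to 90.8 cpm (median 38.8) against 14.0 to 23.6 cpm (median 18). B2m ran from 71.5 to 183 cpm (median 78.5) against 41.7 to 70.1 cpm (median 52.9). The groups did not overlap for any of these 3 genes, as for 20.3% of all genes, B2m by the least (71.5 against 70.1 cpm), and M3677 was again the highest. H2-DMa, in contrast, had medians of 23.6 and 25.7 cpm with overlapping ranges of 16.6 to 28.0 and 20.2 to 28.8 cpm. H2-DMb1 had medians of 2.45 and 1.75 cpm, with 5 of 7 AAV-Cre libraries above every Nestin-Cre library.

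By edgeR's quasi-likelihood test, 8 of the 9 tested members were called higher in AAV-Cre striatum, where 59.7% of all tested genes were called in either direction. Cd74 had a log2 fold change of 4.21 ± 0.61 (SE), or 18.6-fold, with an adjusted p of 5.09e-07 and 7 of 7 libraries above the other group. H2-Aa was 15.1-fold higher (3.91 ± 0.69, adjusted p 1.16e-05, 7 of 7) and H2-Ab1 13.1-fold higher (3.72 ± 0.64, adjusted p 8.36e-06, 7 of 7). H2-Eb1 was 5.61-fold higher (2.49 ± 0.66, adjusted p 0.00161, 6 of 7). H2-D1 was 4.13-fold higher (2.05 ± 0.26, adjusted p 5.55e-08, 7 of 7), H2-K1 2.32-fold (1.21 ± 0.20, adjusted p 5.24e-06, 7 of 7) and B2m 1.69-fold (0.75 ± 0.18, adjusted p 5.06e-04, 7 of 7). H2-DMb1 was 1.41-fold higher (0.49 ± 0.24, adjusted p 0.0769, 5 of 7), and H2-DMa had -0.20 ± 0.12 with an adjusted p of 0.171. Without M3677 the log2 fold changes were 3.02 for H2-Aa (adjusted p 7.68e-05), 2.83 for H2-Ab1 (7.11e-05), 1.89 for H2-Eb1 (0.0121) and 3.33 for Cd74 (1.77e-06), so these calls held. The call of H2-DMb1 ended when any of M3585, M3587, M3588, M4326, M4545 or M4612 was left out, over a range of 0.36 to 0.60 with an adjusted p of up to 0.213. It ended also without the libraries rich in Ttr, at 0.23 with an adjusted p of 0.458. In HET mice 6 members were called higher (43.1% of all genes), with Cd74 at 2.06 ± 0.40 and H2-Aa at 1.66 ± 0.52, and in HOM mice 7 (34.8%), with Cd74 at 2.85 ± 0.38 and H2-Aa at 2.61 ± 0.51.

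Genes that share pathways or cell types with the members were read beside them in the same WT striatum, and their link to the members was not tested. Of 12 other class I heavy chains tested, 8 were higher and 0 lower, with a median log2 fold change of 0.89 against 0.01 for all genes. Their summed level was 56.8 to 165 cpm against 27 to 31.1 cpm, led by H2-L (named after its values were seen) in AAV-Cre and H2-T22 (named likewise) in Nestin-Cre mice, and H2-Q6 had 3.75 ± 0.61. The sum of 165 cpm was that of M3677, with the next library at 76.1 cpm. Of 14 genes of class I loading and processing, 8 were higher and 3 lower (median 0.45), including the class I transactivator Nlrc5 at 3.29 ± 0.44 with an adjusted p of 1.03e-07. Nlrc5 ran from 1.52 to 14.2 cpm in AAV-Cre and from 0.207 to 0.799 cpm in Nestin-Cre striatum. Of 12 genes of the interferon gamma axis, 7 were higher and 1 lower (median 0.62). The summed level of that list was highest in M3677, at 489 cpm, with the next AAV-Cre library at 387 cpm. Fold changes of list genes without M3677 are not given here. Cxcl10 had 3.68 ± 0.74 with an adjusted p of 7.17e-05, from 0.215 to 1.18 cpm against 0 to 0.102 cpm. Ifng itself (named after its values were seen) reached at most 0.0605 cpm in AAV-Cre and 0.0525 cpm in Nestin-Cre striatum. Of 11 other class II genes, 4 were higher and 1 lower (median 0.26). Endothelial markers were higher for 7 of 8 (median 0.84), from 210.2 to 243 cpm against 112 to 186 cpm.

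Markers of the cells that commonly carry class II did not move alike beside the members. Microglia markers were higher for 2 of 13 and lower for 2, with a median of 0.11 and sums of 668 to 806 cpm against 645 to 826 cpm. Border macrophage markers were higher for 0 of 8 and lower for 1 (median -0.16), at 15.9 to 23.6 cpm against 16.3 to 24 cpm, led by Stab1. The 3 tested dendritic cell markers were all higher (median 0.99), at 8.17 to 13 cpm against 5.19 to 6.56 cpm. B cell markers were led by Jchain at 4.83 ± 0.72 and summed to 5.28 to 39.0 cpm against 1.11 to 1.74 cpm, with 1 of 2 tested genes higher (median 2.89). T cell markers were higher for 0 of 3 and lower for 1 (median -0.31), led by Cd4 with 94.8% of the sum in AAV-Cre and 95.9% in Nestin-Cre mice, and Cd3e was at most 0.441 cpm. Choroid plexus markers were higher for 8 of 8 (median 3.77), at 113 to 8343 cpm against 51.5 to 292 cpm, led by Ttr at 4.17 ± 1.17. Mouse M3677, highest for H2-Aa and Cd74, had choroid plexus markers at 113 cpm, like M3587. Its B cell markers, at 35.3 cpm, were next to the highest, that of M3585 at 39.0 cpm. It was also highest for other class I heavy chains and the interferon gamma axis, and a link was not tested. Meningeal fibroblast markers were higher for 1 of 8 (median 0.27), and astrocyte reactivity markers for 4 of 6 (median 0.79), at 177 to 439 cpm against 103 to 201 cpm. Stab1, Cd4 and Cd3e were named after their values were seen. Blood markers were called for 0 of 2 (median -0.41), PFC markers were lower for 4 of 6 (median -1.99), striatum markers were called for 0 of 6 (median -0.33), and substantia nigra markers were higher for 1 of 6 and lower for 1 (median -0.31).

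The PFC and SN of the same mice were not injected, and they put the members' difference between the models to the same question away from the injection site. In PFC the class I genes were higher in AAV-Cre mice and the class II chains were not called. In SN the picture was mixed, with H2-D1 higher and H2-Aa, H2-Eb1 and B2m lower in AAV-Cre mice. H2-K1 in PFC of WT mice ran from 23.7 to 51.9 cpm (median 33.3) in AAV-Cre and from 16.6 to 22.3 cpm (median 18.7) in Nestin-Cre mice. B2m ran from 68.3 to 91.2 cpm (median 88.4) against 53.6 to 66.9 cpm (median 59.4). For both the groups were apart, as for 6.07% of all genes, whereas H2-D1, at 16.4 to 41.1 cpm (median 31.1) against 12.9 to 22.9 cpm (median 14.7), overlapped through M4575 alone, a mouse of unlike labels, with the next Nestin-Cre library at 15.4 cpm. Cd74 ran from 6.15 to 19.6 cpm (median 11.8) against 2.57 to 7.23 cpm (median 6.08). H2-Aa ran from 2.87 to 9.16 cpm (median 6.00) against 1.70 to 4.71 cpm (median 3.28). Cd74 and H2-Aa overlapped between the models, with 6 of 7 AAV-Cre libraries of each above every Nestin-Cre library.

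In PFC 4 of 9 members were called, all higher in AAV-Cre mice, with 41.1% of all genes called. H2-D1 was 1.91-fold higher (0.93 ± 0.23, adjusted p 0.00169, 5 of 7 libraries above the other group with M4575 kept), H2-K1 1.71-fold (0.77 ± 0.19, adjusted p 0.00163, 7 of 7) and B2m 1.41-fold (0.49 ± 0.16, adjusted p 0.0183, 7 of 7). Cd74 was 2.06-fold higher (1.04 ± 0.49, adjusted p 0.0981, 6 of 7), and H2-Aa, at 0.85 ± 0.55 with an adjusted p of 0.242, was not called. The call of Cd74 ended in 12 of 16 omissions of a mouse, those of M3576, M3587, M3588, M3649, M4326, M4394, M4396, M4529, M4545, M4575, M4609 and M4612, over a range of 0.86 to 1.14 with an adjusted p of up to 0.212. In HET mice 1 member was called in PFC (8.13% of all genes), H2-K1 at 0.44. In HOM mice 0 were called by edgeR's quasi-likelihood test (4.32%), with 2 at an unadjusted p under 0.05.

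In SN of WT mice, H2-Aa ran from 2.26 to 20.9 cpm (median 5.77) in AAV-Cre and from 3.39 to 55.3 cpm (median 7.72) in Nestin-Cre mice. H2-Eb1 ran from 1.66 to 18.3 cpm (median 2.68) against 3.07 to 46.3 cpm (median 6.65). B2m ran from 73.5 to 134 cpm (median 91.7) against 84.9 to 231 cpm (median 162). The groups overlapped for all 3, and the Nestin-Cre mice M4394 and M4329 stood apart for H2-Aa at 55.3 and 43.4 cpm, with the next at 8.32 cpm. H2-D1 ran from 22.2 to 41.5 cpm (median 38.6) against 14.1 to 27.5 cpm (median 17.5), with 5 of 7 AAV-Cre libraries above every Nestin-Cre library. Among the AAV-Cre WT mice, M3576, M3578, M3649 and M3677 had 38.6 to 41.5 cpm and M3585, M3587 and M3588 22.2 to 27.6 cpm. Their H2-D1 in PFC was 31.1 to 41.1 and 16.4 to 26.9 cpm in the same order. The ratio of H2-Eb1 to H2-Aa was 0.122 to 0.392 in PFC and STR of the former and 0.692 to 0.958 in the latter. The cause of this split was not tested. Of 9 members, 1 was called higher and 3 lower, with 62.7% of all genes called. H2-D1 was 1.81-fold higher (0.85 ± 0.25, adjusted p 0.00322). H2-Eb1 was 3.03-fold lower (-1.60 ± 0.55, adjusted p 0.0124, 4 of 7 libraries below every Nestin-Cre library), H2-Aa 2.13-fold lower (-1.09 ± 0.54, adjusted p 0.0826, 2 of 7) and B2m 1.58-fold lower (-0.66 ± 0.17, adjusted p 0.00142, 2 of 7).

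The H2-Aa call in SN ended without any of M3576, M3585, M3588, M3649, M3677, M4329 or M4394, over a range of -1.45 to -0.51 with an adjusted p of up to 0.453. That of H2-Eb1 ended without M4394, at -1.06 with an adjusted p of 0.104, and without M3587 it was -2.31 (adjusted p 6.74e-04). In HET mice 2 members were called in SN (41.4% of all genes), H2-Eb1 at -1.30 and H2-D1 at 0.53. In HOM mice 4 were called lower (51.9%), H2-Aa at -1.18, H2-Ab1 at -0.82, H2-Eb1 at -0.88 and B2m at -0.58, and H2-D1 had -0.03. Over the 3 regions of WT mice, 16 of 27 member tests were called and 15 (55.6%) had an unadjusted p under 0.05, against 54.0% of the tests of all genes. Lists of cells that can carry class II went both ways beside the members in AAV-Cre SN. B cell markers were higher for 2 of 2 (median 2.05), at 4.75 to 29.5 cpm against 2.95 to 4.31 cpm, and dendritic cell markers for 2 of 3 (median 0.61), at 25.0 to 31.3 cpm against 21.1 to 29.9 cpm. Border macrophage markers were lower for 7 of 8 (median -1.05), at 20.4 to 52.3 cpm against 21.1 to 107 cpm, meningeal fibroblast markers for 7 of 8 (median -1.36), at 169 to 604 cpm against 272 to 1521 cpm, and microglia markers for 9 of 13 (median -0.43), among them Fcrls at -2.35. Mice M4329 and M4394, high for H2-Aa, summed to 1521 and 1312 cpm of meningeal and to 107 and 75.4 cpm of border macrophage markers, and a link was not tested. In PFC, 10 of 13 microglia markers were higher in AAV-Cre mice (median 0.42), as were 7 of 12 other class I heavy chains (median 0.56).

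**Figure D2:**
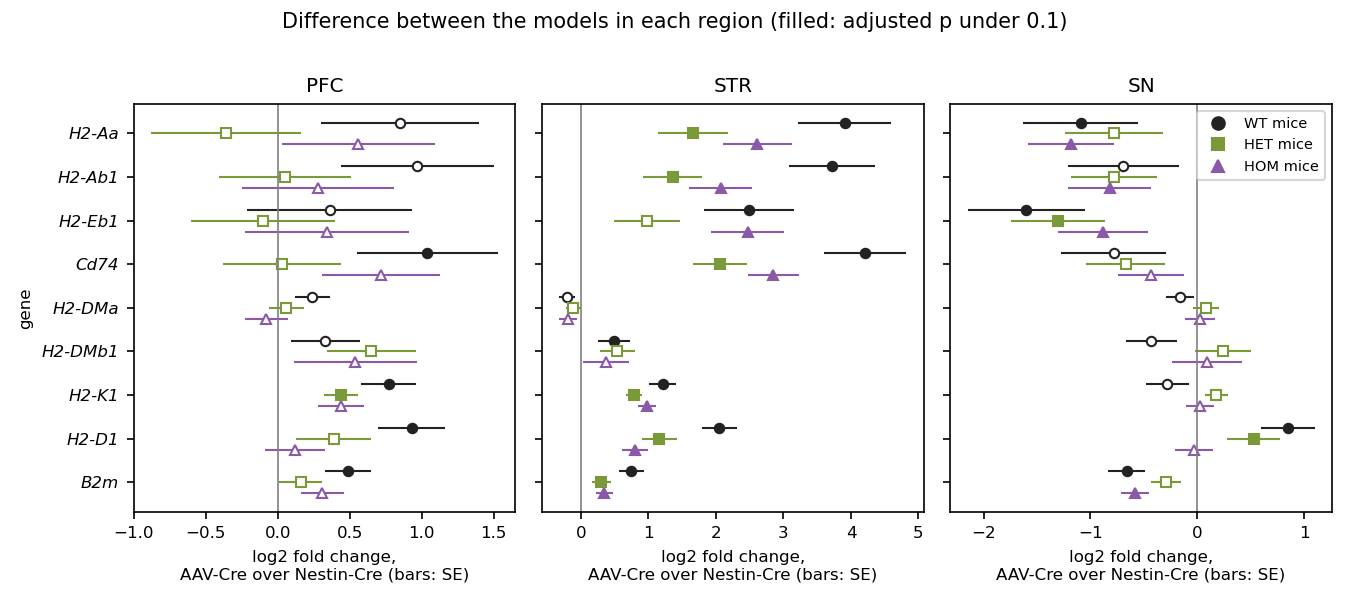
Log2 fold change of AAV-Cre over Nestin-Cre mice with its standard error for the 9 tested members, in PFC, STR and SN of WT, HET and HOM mice; filled points have an adjusted p under 0.1. Cd74 in WT mice is at 4.21 in STR, 1.04 in PFC and not called in SN.

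Whether the models differed more in the injected striatum than in the other regions of the same mice was tested directly, as the difference of AAV-Cre minus Nestin-Cre between regions. The class II chains and Cd74 had a larger difference in STR than in PFC or SN, and so had H2-D1. H2-K1 and B2m had a larger difference in STR than in SN and were not called against PFC. Both tests use the same STR libraries, so their values are not independent. Against PFC, 6 of 9 members were called, 5 with a larger difference in STR and 1 with a lower, where 29.4% of all genes were called. Cd74 had 3.17 ± 0.77 (adjusted p 0.00299), H2-Aa 3.06 ± 0.88 (0.0108), H2-Ab1 2.75 ± 0.83 (0.0148), H2-Eb1 2.13 ± 0.87 (0.0747), H2-D1 1.11 ± 0.34 (0.0165) and H2-DMa -0.44 ± 0.17 (0.0603). Against SN, 8 of 9 were called with a larger difference in STR (34.0% of all genes). H2-Aa had 5.01 ± 0.88 (1.23e-04), Cd74 5.00 ± 0.78 (3.88e-05), H2-Ab1 4.40 ± 0.82 (2.30e-04) and H2-Eb1 4.09 ± 0.86 (7.10e-04). H2-K1 had 1.49 ± 0.28 (2.52e-04), B2m 1.41 ± 0.25 (1.31e-04), H2-D1 1.19 ± 0.35 (0.0115) and H2-DMb1 0.92 ± 0.34 (0.0390).

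Leaving out M3677 lowered the values of the class II genes for STR against PFC to 2.17 for H2-Aa (adjusted p 0.0436), 1.87 for H2-Ab1 (0.0661) and 2.30 for Cd74 (0.0119), and ended the call of H2-Eb1 at 1.47 (0.223). For STR against SN it lowered H2-Aa to 3.95 (5.43e-04), H2-Ab1 to 3.40 (0.00119), Cd74 to 3.99 (1.14e-04) and H2-Eb1 to 3.33 (0.00428). H2-Eb1 against SN was 4.75 (2.03e-04) without M3587 and 3.50 (0.00372) without M4394. H2-Eb1 against PFC also lost its call without M3585, M4326, M4609 or M4612. H2-DMa lost its call against PFC without M3576, M3578, M3585, M4529 or M4545, with an adjusted p of up to 0.140, and without the libraries rich in Ttr, at -0.37 (0.130). H2-DMb1 lost its call against SN without M3585 (0.101) and without the libraries rich in Ttr, at 0.66 (0.162). With mouse as a block in the fit, H2-Eb1 against PFC had 1.87 with an adjusted p of 0.144. In HET mice the tests called 1 member against PFC (6.57% of all genes) and 5 against SN (4.63%), and in HOM mice 1 (1.41%) and 7 (13.1%). Cd74 was called in all 4 of these repeats, at 2.03 and 2.13 against PFC and at 2.73 and 3.28 against SN in HET and HOM mice. Beside the members, Nlrc5 had 2.12 against PFC and 2.64 against SN, and Cxcl10 3.97 against SN. Choroid plexus markers were called with a larger difference in STR for 7 of 8 and meningeal markers for 8 of 8 against SN, and a link to the members was not tested.

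How the members were spread over the brain regions was compared within each model. In uninjected Nestin-Cre mice, SN had the highest and STR the lowest levels of the class II chains and Cd74, with PFC between them. In AAV-Cre WT mice no class II gene was called higher in SN than in another region, whereas in HET and HOM mice H2-Aa, H2-Ab1, H2-Eb1 and Cd74 were called higher in SN than in PFC, with Cd74 at 1.02 and 0.94, where 10439 of 15329 and 10509 of 15346 genes were called. Whether genotypes differ in this was not tested. H2-DMa had its lowest level in SN and its highest in STR in both models. H2-Aa in WT Nestin-Cre mice ran from 3.39 to 55.3 cpm (median 7.72) in SN, from 1.70 to 4.71 cpm (median 3.28) in PFC and from 0.577 to 1.20 cpm (median 0.965) in STR. Cd74 ran from 5.49 to 60.9 cpm (median 11.4) in SN, from 2.57 to 7.23 cpm (median 6.08) in PFC and from 1.33 to 2.26 cpm (median 1.59) in STR. H2-DMa ran from 5.69 to 13.5 cpm (median 7.87) in SN, from 10.4 to 14.0 cpm (median 12.1) in PFC and from 20.2 to 28.8 cpm (median 25.7) in STR. STR was apart from both other regions for H2-Aa, H2-DMa and Cd74. Of all genes, 33.0% were apart between STR and PFC and 45.6% between STR and SN. The SN libraries of M4329 and M4394 were the high ones for H2-Aa. B2m was at 84.9 to 231 cpm in SN and at most 70.1 cpm in the other regions, without overlap. The same held for 48.4% of all genes between SN and PFC and for 45.6% between SN and STR.

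In Nestin-Cre WT mice, SN against STR called 8 of 9 members, 7 higher and 1 lower, with 78.5% of all genes called. H2-Aa was 19.3-fold higher in SN (4.27 ± 0.70, adjusted p 1.11e-06, 6 of 6 libraries above STR), H2-Eb1 15.1-fold (3.92 ± 0.67, adjusted p 2.38e-06, 6 of 6) and Cd74 12.6-fold (3.65 ± 0.62, adjusted p 1.75e-06, 6 of 6). H2-Ab1 had 3.49 ± 0.65, B2m 1.34 ± 0.18, H2-K1 1.17 ± 0.21 and H2-D1 1.16 ± 0.27, and H2-DMa was 3.31-fold lower (-1.73 ± 0.13, adjusted p 1.20e-14, 6 of 6 below). SN against PFC called 8, 7 higher and 1 lower (80.3%), from H2-Eb1 at 2.68 ± 0.55 and H2-Aa at 2.42 ± 0.55 to H2-K1 at 1.07 ± 0.19 and H2-DMb1 at 1.06 ± 0.24, with H2-DMa at -0.72 ± 0.13. STR against PFC called 7, 2 higher and 5 lower (70.3%), with H2-Aa at -1.85 ± 0.70 (adjusted p 0.0197), Cd74 at -1.75 ± 0.60 (0.0110), H2-D1 at -1.06 ± 0.25 (4.15e-04) and H2-DMa at 1.01 ± 0.12 (1.59e-09). H2-Eb1 in STR against PFC, at -1.24 ± 0.66 (0.0984), lost its call in 10 of 16 omissions of a mouse, those of M3585, M3588, M3649, M4326, M4329, M4394, M4529, M4575, M4609 and M4612, with -1.37 to -1.06 and an adjusted p of up to 0.185. It lost it also without the libraries rich in Ttr, at -1.24 (0.109), and with mouse as a block, at -1.18 (0.153). Without M4394, SN against PFC had H2-Aa at 1.80 (0.00572), H2-Eb1 at 2.06 (0.00183) and Cd74 at 1.29 (0.0244), and SN against STR had H2-Eb1 at 3.33 (8.78e-05), all still called.

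In AAV-Cre WT mice the median of H2-Aa was 5.77 cpm in SN, 6.00 in PFC and 8.15 in STR, with overlapping ranges. Cd74 had medians of 9.58, 11.8 and 20.1 cpm in the same order, also with overlap. H2-DMa, at 6.09 to 9.38 cpm in SN, lay below every library of PFC (13.1 to 17.4 cpm) and STR (16.6 to 28.0 cpm). Of all genes, 41.5% were apart between SN and PFC and 45.8% between SN and STR. STR against PFC called 5 members higher (61.3% of all genes), with Cd74 at 1.42 ± 0.48 (adjusted p 0.0119), H2-Ab1 at 1.24 ± 0.51 (0.0382), H2-Aa at 1.22 ± 0.54 (0.0545), H2-DMb1 at 0.94 ± 0.24 (8.82e-04) and H2-DMa at 0.57 ± 0.12 (9.57e-05). The calls of H2-Aa, H2-Ab1 and Cd74 rested on M3677, without which they had 0.33 (0.614), 0.36 (0.553) and 0.54 (0.302). With mouse as a block, H2-Aa had 0.90 (0.148) and H2-Ab1 0.91 (0.117). SN against PFC called 1 member (70.5%), H2-DMa at -1.12 ± 0.13 (3.86e-10, 7 of 7 below). SN against STR called 3, all lower (72.1%), H2-DMa at -1.69 ± 0.12 (3.11e-15), Cd74 at -1.35 ± 0.48 (0.0120) and H2-DMb1 at -0.64 ± 0.23 (0.0129). Without M3677 Cd74 had -0.34 (0.502), and without the libraries rich in Ttr H2-DMb1 had -0.38 (0.162), so both calls ended. Over both models 32 of 54 region tests were called and 31 (57.4%) had an unadjusted p under 0.05, against 69.9% of the tests of all genes, and the same contrasts in HET and HOM mice called 36 and 38. In these repeats 8699 to 11277 of 15329 genes were called in HET mice and 8710 to 11469 of 15346 in HOM mice.

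Beside the members' contrast of SN and STR in Nestin-Cre mice, meningeal fibroblast markers were higher in SN for 8 of 8 (median 3.06), at 272 to 1521 cpm against 106 to 171 cpm. Border macrophage markers were higher for 7 of 8 (median 2.26), other class I heavy chains for 12 of 12 (median 1.32) and genes of class I loading for 13 of 14 (median 0.75). Astrocyte reactivity markers were higher for 6 of 6 (median 1.76), at 1048 to 2126 cpm against 103 to 201 cpm. Microglia markers were higher for 2 of 13 and lower for 3. None of these lists was tested for a link to the members.

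Whether the cKU allele changed the members was asked within each model and region, HET and HOM mice each against the same WT libraries. No member was called between genotypes by edgeR's quasi-likelihood test, and other tools called some. H2-Aa, Cd74, H2-K1 and H2-D1 in AAV-Cre PFC and STR had lower medians in HET and HOM than in WT mice. In Nestin-Cre STR the medians of H2-Aa, H2-Ab1 and Cd74 were higher in HET mice. In SN of both models the medians of H2-Aa and Cd74 were higher in HET and HOM than in WT mice. For H2-Aa they were 1.53 and 1.59 times the WT median in AAV-Cre and 2.21 and 2.85 times in Nestin-Cre SN. The Nestin-Cre SN means of H2-Aa did not rise, at 20.3 cpm in WT and 19.1 cpm in HET and HOM mice. H2-D1 in AAV-Cre SN had lower medians, at 38.6 (WT), 27.3 (HET) and 25.4 cpm (HOM). All of these groups overlapped. High H2-D1 in SN was found in M3576, M3578, M3649 and M3677 among WT mice (38.6 to 41.5 cpm). It was found in M3577, M3652 and M3688 among HET (42.4 to 67.5 cpm) and in M3690 among HOM mice (43.4 cpm). All other AAV-Cre mice had 19.0 to 29.7 cpm. The same mice were the high ones in PFC, at 29.7 to 43.5 cpm against at most 26.9 cpm, and the cause was not tested. H2-Aa in AAV-Cre STR had a median of 8.15 cpm in WT, 5.35 (2.51 to 13) in HET and 6.62 (4.0 to 9.34) in HOM mice. Cd74 in AAV-Cre STR had 20.1 cpm in WT, 12.2 (6.55 to 23.1) in HET and 13.3 (11.4 to 23.2) in HOM mice. H2-Aa in AAV-Cre PFC had 6.00 cpm in WT, 2.33 (1.73 to 7.72) in HET and 4.13 (2.18 to 6.36) in HOM mice. The genotypes overlapped for every member in all 12 comparisons, where only 0.00675% to 1.11% of all genes were apart. M3677 was the far WT mouse of AAV-Cre STR. In Nestin-Cre STR, H2-Aa had a median of 0.965 cpm in WT, 1.52 (0.715 to 4.60) in HET and 0.983 (0.532 to 1.37) in HOM mice, with M4566 highest. That library also had Ttr at 18404 cpm and choroid plexus markers at 19058 cpm, against at most 185 cpm in the other HET libraries, and meningeal markers at 701 cpm, against at most 199 cpm. The 4 Nestin-Cre HOM mice in PFC had H2-Aa at 1.53, 2.32, 2.71 and 4.38 cpm and H2-K1 at 15.6, 20.2, 21.3 and 22.7 cpm, against WT ranges of 1.70 to 4.71 and 16.6 to 22.3 cpm. Their H2-Ab1 was at 0.179 (M4393), 2.02, 2.51 and 2.84 cpm, against 1.09 to 2.74 cpm.

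By edgeR's quasi-likelihood test 0 of 108 member tests were called, 25 (23.1%) had an unadjusted p under 0.05, against 8.30% of the tests of all genes, and the lowest adjusted p was 0.177. Most of the 25 were in AAV-Cre PFC, with 5 in HET and 5 in HOM mice, and in AAV-Cre STR, with 4 and 5. HET and HOM mice share their WT libraries there, M3677 included, and members vary together, so these tests are not independent. DESeq2 called 1, Cd74 in HET mice of Nestin-Cre STR at 0.93 (0.0742), and edgeR's likelihood ratio test called 26. Of those 26, 4 and 5 were in AAV-Cre PFC (HET and HOM), 7 and 6 in AAV-Cre STR, 3 in Nestin-Cre STR (HET) and 1 in Nestin-Cre SN (HET), and 14 were left without M3677, when 547 and 563 of 14616 genes were called in AAV-Cre PFC and 32 and 147 of 14639 in AAV-Cre STR. With M3677 kept, the likelihood ratio test called, of all genes, 1242 of 14494 in Nestin-Cre STR (HET), 248 and 429 of 14628 in AAV-Cre PFC, 56 and 175 of 14655 in AAV-Cre STR and 332 of 14873 in Nestin-Cre SN (HET), and DESeq2 called 536 of 14464 in Nestin-Cre STR (HET). By the quasi-likelihood test 0% of all genes were called in 10 of the 12 comparisons, 0.0137% in AAV-Cre PFC HOM and 0.25% in Nestin-Cre PFC HOM mice. H2-Aa in AAV-Cre STR had -1.24 ± 0.47 in HET and -1.23 ± 0.47 in HOM mice, and Cd74 -1.21 ± 0.44 and -1.09 ± 0.44. WT mouse M3677 enters these estimates, at 53.4 cpm for H2-Aa and 119 cpm for Cd74, against next WT values of 12.2 and 24.3 cpm. Without M3677 the likelihood ratio test called neither gene in AAV-Cre STR, and the estimates without it are not given here. In AAV-Cre PFC, Cd74 had -0.68 ± 0.25 in HET (adjusted p 0.340) and -0.53 ± 0.24 in HOM mice, and H2-D1 had -0.64 ± 0.21 in HOM mice (0.232). In Nestin-Cre STR of HET mice, Cd74 had 0.92 ± 0.28 (0.177), H2-Ab1 1.16 ± 0.38 (0.185) and H2-Aa 0.98 ± 0.37 (0.222). Without M4566, the library rich in Ttr, Cd74 had 0.57 (0.267), H2-Ab1 0.76 (0.290) and H2-Aa 0.57 (0.364). No gene of the marker lists was called between genotypes by the quasi-likelihood test.

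The genotype effects on the members were also compared between the models. In STR the HET estimates of H2-Aa, H2-Ab1, H2-Eb1 and Cd74 were below 0 in AAV-Cre and above 0 in Nestin-Cre mice, and those of H2-DMa and H2-DMb1 were within 0.10 of 0 in both. No difference was called by the quasi-likelihood test. H2-Ab1 in STR had a difference of -2.34 ± 0.66 (adjusted p 0.201), H2-Aa of -2.23 ± 0.67 (0.203) and Cd74 of -2.15 ± 0.60 (0.201). The AAV-Cre WT libraries behind these differences include M3677, at 36.4, 53.4 and 119 cpm for H2-Ab1, H2-Aa and Cd74. The next WT values were 7.57, 12.2 and 24.3 cpm, and the differences without M3677 are not given here. B2m in PFC had -0.34 ± 0.11 for HET mice (0.164). By the quasi-likelihood test 0 of 54 were called and 16 (29.6%) had an unadjusted p under 0.05, against 11.8% of the tests of all genes, while DESeq2 called 1 and the likelihood ratio test 18. These tests also share WT libraries and members that vary together, so they are not independent. The likelihood ratio test called 5 members in PFC HET, where it called 3.24% of all genes, 1 in PFC HOM (4.20%), 6 in STR HET (6.11%), 4 in STR HOM (1.74%), 1 in SN HET (4.56%) and 1 in SN HOM mice (1.07%). The call by DESeq2 was B2m in PFC HET mice, with 2.56% of all genes. By the quasi-likelihood test 0.678% (HET) and 3.54% (HOM) were called in PFC, 0.00673% and 0.0202% in STR, and 0% and 0% in SN.

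Since each mouse gave up to 3 libraries, the members were followed across regions of a mouse, asking whether a mouse high in 1 region was high in another. Of the 6 relations of H2-D1, 3 were called, 2 were not pooled and that of PFC and STR in AAV-Cre mice, with an r of 0.47 (permutation p 0.0426, adjusted 0.323), a rho of 0.47 (0.0365, adjusted 0.215) and an r of 0.35 without the 2 farthest mice, was not called. H2-D1 in PFC and SN of AAV-Cre mice was high together in M3577, at 43.5 and 67.5 cpm, with STR at 34.6 cpm. Over 22 AAV-Cre mice, with group means removed, H2-D1 in PFC and SN had an r of 0.93 (permutation p 1.00e-05, the smallest that 100000 permutations can give, adjusted 5.30e-04) and a rho of 0.90 (4.00e-05, adjusted 0.00212). Without the 2 mice farthest from the median, r was 0.92. M3576, M3577, M3578, M3649, M3652, M3677, M3688 and M3690 had H2-D1 at 38.6 to 67.5 cpm in SN and 29.7 to 43.5 cpm in PFC. The other AAV-Cre mice had 19.0 to 29.7 cpm in SN and 13.8 to 26.9 cpm in PFC. This r thus also reflects a gap between sets of mice, which the rule on clusters given below did not exclude. A relation within each set was not tested. H2-D1 in STR and SN of 21 AAV-Cre mice had an r of 0.52 (permutation p 0.00356, adjusted 0.0517) and a rho of 0.48 (0.0247, adjusted 0.168), and r was 0.50 without the 2 farthest mice. In 18 Nestin-Cre mice it had an r of 0.70 (permutation p 0.00220, adjusted 0.0517) and a rho of 0.74 (7.30e-04, adjusted 0.0193), and r was 0.74 without the 2 farthest. H2-DMa in PFC and STR of 15 Nestin-Cre mice had an r of 0.67 (permutation p 0.00390, adjusted 0.0517) and a rho of 0.66 (0.00857, adjusted 0.114), and r was 0.52 without the 2 farthest (0.0319), which was not called after adjustment. H2-DMb1 in STR and SN of 21 AAV-Cre mice had an r of 0.60 (permutation p 0.00750, adjusted 0.0795) and a rho of 0.57 (0.0140, adjusted 0.147), and without the 2 farthest an r of 0.46 (0.0599), so it rested on those mice. The family held 60 relations, 53 of them tested and 7 not pooled since the mice fell into clusters, by a rule set after the values were seen. The 6 relations of H2-Aa had an r of 0.04 to 0.38, none called.

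**Figure D3:**
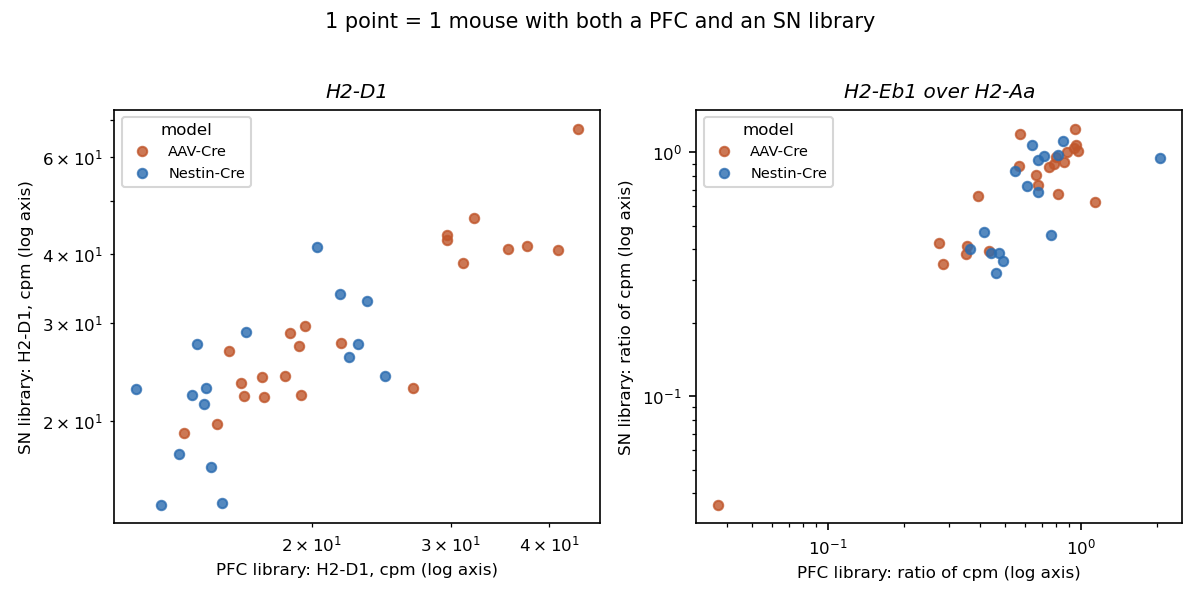
H2-D1 in cpm and the ratio of H2-Eb1 to H2-Aa, in SN against PFC, with a point per mouse of each model. H2-D1 in AAV-Cre mice has an r of 0.93 with group means removed, with no mouse between 29.7 and 38.6 cpm in SN. M3577 has ratios of 0.0370 in PFC and 0.0359 in SN.

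Over all libraries of both models with group means removed, the members' levels were set against each other. H2-Aa had an r of 0.93 with Cd74, 0.90 with H2-Ab1, 0.74 with Ciita and 0.65 with H2-Eb1, against 0.62 with B2m, 0.54 with H2-K1 and 0.53 with H2-D1. With the peptide-exchange genes it was lower, at 0.39 for H2-DMa and 0.22 for H2-DMb1. H2-D1 and H2-K1, both heavy chains, had 0.22, and H2-DMa had 0.51 with H2-K1, 0.47 with H2-DMb1 and 0.39 with H2-Aa. H2-K1 had 0.69 with H2-Eb1 and 0.58 with B2m. Among 14366 genes, those most like H2-Aa outside the members were Serping1 at 0.76, Lum at 0.71, Colec12 at 0.70, Fmod at 0.69 and Lyz2 at 0.69. Among those most like Ciita were Serping1 at 0.67, Cp at 0.62, Aox3 at 0.61 and Gpr182 at 0.60. Those most like H2-K1 were Psmb8 at 0.69, Tap1 at 0.63, Iigp1 at 0.63, Parp10 at 0.62 and Irf1 at 0.62. The summed level of meningeal fibroblast markers, and that of border macrophage markers, had an r of 0.60 with H2-Aa, against 0.12 for microglia markers. H2-K1 had 0.71 with the other class I heavy chains. These are descriptions across libraries with no p, and libraries of a mouse are not independent.

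Known control motifs of class II and class I genes were looked up in the 250 bases before the start of transcription, on both strands, in RefSeq promoters on GRCm38.p6. The table held 9 promoters of 7 members, and H2-Ab1, Cd74 and Ciita had none in the table. The Y box core GATTGG, found in 14.6% of 32851 promoters, lay at -49 in H2-Aa, at -60 and, on the opposite strand, -35 in H2-Eb1, at -62 in H2-DMb1, at -54 in B2m and, on the opposite strand, at -53 in H2-D1. In second promoters it lay at -199 in H2-DMa and, on the opposite strand, at -6 in H2-K1. The kappa B core GGGGATTCC, found in 0.213%, lay at -111 in H2-K1, at -125 in its second promoter and at -171 in H2-D1. The core of the interferon-stimulated response element (GAAANNGAA, 7.13%) lay at -139 in B2m, and the X box core as searched (AGCAACAG, 1.83%) was in no member's promoter. The stretches of 150 bases before the start, with matches in capitals, were those of H2-Aa at chr17:34287824-34287973 (minus strand), H2-Eb1 at chr17:34305717-34305866 (plus), B2m at chr2:122147537-122147686 (plus) and H2-K1 at chr17:34000348-34000497 (minus). That of H2-D1, at chr17:35262914-35263063 (plus), covers -180 to -31.
H2-Aa: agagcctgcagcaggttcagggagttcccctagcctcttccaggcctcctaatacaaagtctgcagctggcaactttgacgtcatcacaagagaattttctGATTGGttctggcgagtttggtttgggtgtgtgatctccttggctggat
H2-Eb1: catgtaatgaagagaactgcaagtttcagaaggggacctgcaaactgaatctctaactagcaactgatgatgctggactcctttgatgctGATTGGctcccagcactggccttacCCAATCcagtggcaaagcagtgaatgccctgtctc
B2m: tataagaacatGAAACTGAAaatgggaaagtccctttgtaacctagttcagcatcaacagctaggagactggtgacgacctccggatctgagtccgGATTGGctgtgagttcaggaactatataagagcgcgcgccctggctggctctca
H2-K1: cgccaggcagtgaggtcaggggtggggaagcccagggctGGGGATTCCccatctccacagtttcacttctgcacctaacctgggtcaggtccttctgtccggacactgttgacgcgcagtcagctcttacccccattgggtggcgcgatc
H2-D1: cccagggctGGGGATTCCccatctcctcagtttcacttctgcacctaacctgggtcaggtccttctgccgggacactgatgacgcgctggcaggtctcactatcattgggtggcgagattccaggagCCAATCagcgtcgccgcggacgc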

How the data were processed

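Bulk RNA of 121 libraries from 3 brain regions was sequenced as stranded mRNA, 75-base single-end. The authors used bcl2fastq 2.20.0.422, STAR 2.5.2b on mm10 and featureCounts 1.5.1, and the deposited table holds counts per gene. Groups follow the labels. Genes reaching 1 cpm in 3 or more libraries of a fit were normalised by TMM and tested with edgeR 4.0.16 (R 4.3.3; quasi-likelihood, trended dispersion, two-sided), adjusted by Benjamini-Hochberg over all genes and called at an adjusted p under 0.1. Values after ± are standard errors. Alternatives included DESeq2 1.42.0. Summaries used Python 3.11.15, numpy 2.4.6, pandas 2.3.3 and scipy 1.17.1, and plots matplotlib 3.10.9. Same-mouse relations used log2(cpm + 0.5) and 100000 permutations.

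Libraries of a mouse number were checked as pairs: residuals had a median r of 0.23 in 114 same-mouse pairs and -0.01 in 2339 pairs of different mice. M4575, with unlike labels, had 0.41, 0.23 and 0.19. Within the groups, no library was a copy of another.

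The members and 17 marker lists (other class II genes, class I loading, other class I heavy chains, the interferon gamma axis, and markers of microglia, border macrophages, dendritic, T, B, endothelial, choroid plexus, meningeal and blood cells, astrocyte reactivity and the 3 regions) were chosen with earlier results of these data known. Named genes are the members, up to 10 called list genes per comparison by size of change, and the 5 genes most like H2-Aa, H2-K1 and Ciita; others are marked as chosen after their values were seen. Some items of these lists are not reported here.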

Additional observations from a re-analysis of the deposited data

Results flagged for a closer look

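A library far from the rest of its group, by Dixon's test, turned up in 27 of 180 combinations of member and group. The test was run on cpm, where it found such a library in 6.33% of combinations of group and gene over the genes with a mean of at least 1 cpm; on log2 values it did in 22 of the 180 and in 5.40% over those genes. For normally distributed values chance flags about 1 in 20 groups. Members are not independent of each other, so a single mouse can give several. M3677 gave 8, all highest in AAV-Cre STR of WT mice: H2-Aa at 53.4 cpm, H2-Ab1 at 36.4, H2-Eb1 at 17.8, Cd74 at 119, Ciita at 1.47, H2-K1 at 90.8, H2-D1 at 76.9 and B2m at 183. M4566 gave 5, highest in Nestin-Cre STR of HET mice for H2-Aa at 4.60 cpm, H2-Ab1 at 4.02, H2-Eb1 at 2.77 and Cd74 at 7.41, and lowest in PFC for B2m at 52.4. M3652 was highest in AAV-Cre PFC of HET mice for H2-Ab1 at 5.70 cpm and Ciita at 0.559. M3690 was highest among AAV-Cre HOM mice for H2-D1 in PFC at 29.7 cpm and in SN at 43.4 cpm.

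The other 10 came from a mouse each. In AAV-Cre mice, H2-DMb1 was lowest in M3749 at 0.157 cpm (PFC, HOM) and B2m lowest in M3585 at 68.3 cpm (PFC, WT). H2-Eb1 was highest in M3587 at 18.3 cpm (SN, WT), H2-D1 in M3577 at 34.6 cpm (STR, HET) and H2-K1 in M3606 at 45.9 cpm (STR, HOM). In Nestin-Cre mice, Cd74 was highest in M4564 at 13.1 cpm (PFC, HET), H2-D1 in M4575 at 22.9 cpm (PFC, WT), H2-DMb1 in M4628 at 3.28 cpm (SN, HET) and H2-DMa in M4569 at 11.6 cpm (SN, HOM). H2-DMa was lowest in M4578 at 18.1 cpm (STR, HET).

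The difference between the models was itself unlike between regions, by the test of the difference, for 28 values on the log2 scale. In WT mice, STR against PFC gave 3.06 for H2-Aa, 2.75 for H2-Ab1, 2.13 for H2-Eb1, 3.17 for Cd74, -0.44 for H2-DMa and 1.11 for H2-D1. STR against SN gave 5.01 for H2-Aa, 4.40 for H2-Ab1, 4.09 for H2-Eb1, 5.00 for Cd74, 0.92 for H2-DMb1, 1.49 for H2-K1, 1.19 for H2-D1 and 1.41 for B2m. In HET mice, STR against PFC gave 2.03 for Cd74 (adjusted p 0.0339), and STR against SN gave 2.44 for H2-Aa (0.0452), 2.15 for H2-Ab1 (0.0396), 2.28 for H2-Eb1 (0.0488), 2.73 for Cd74 (0.00289) and 0.62 for H2-K1 (0.0274). In HOM mice, STR against PFC gave 2.13 for Cd74 (0.0599). STR against SN gave 3.79 for H2-Aa (0.00114), 2.89 for H2-Ab1 (0.00397), 3.35 for H2-Eb1 (0.00352), 3.28 for Cd74 (1.89e-04), 0.94 for H2-K1 (0.00352), 0.82 for H2-D1 (0.0456) and 0.93 for B2m (0.00307).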

How the results depend on the processing

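Each of 261 member results was recomputed under the alternatives, 3933 values in all. Of these, 3696 kept their side of the threshold, 103 lost a call, 127 gained one, and 7 changed sign where either value was called. Another 80 changed sign with neither value called, and are counted with the 3696.

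The counts of calls between regions, 32 of 54, stayed within 1.5 times under every alternative run, from 28 to 35 without an AAV-Cre WT mouse and 31 to 32 without a Nestin-Cre WT mouse. Between models, 16 became 13 to 17 and 14 to 16, and for model by region, 14 became 11 to 14 and 13 to 14. The likelihood ratio test gave 20 between models and 15 for model by region, and HOM mice gave 11 between models. Only the repeats in other genotypes moved these counts by more than 1.5 times. They gave 9 between models in HET mice, and 6 (HET) and 8 (HOM) for model by region, for a cause that was not tested. Genotype calls, 0 of 108, rose to 26 by the likelihood ratio test, to 14 by that test without M3677 and to 1 by DESeq2. Calls of genotype by model, 0 of 54, rose to 18, 10 and 1. The cause was not tested. For genotype by model without M3677, the likelihood ratio test called 3.79% (HET) and 4.68% (HOM) of all genes in PFC. In STR it called 5.66% and 1.55%, and in SN 3.40% and 0.894%. Leaving out each of the 4 Nestin-Cre HOM mice of PFC, or M3677, left the quasi-likelihood count between genotypes at 0.

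The 7 sign changes where either value was called were in the repeats. For SN against STR of AAV-Cre mice, HET mice gave 0.14 for Cd74, 0.57 for H2-D1 and 0.39 for B2m, and HOM mice 0.08, 0.43 and 0.29, against -1.35, -0.03 and -0.07 in WT mice. H2-D1 in SN between the models was -0.03 in HOM and 0.85 in WT mice; the cause was not tested. Changes with neither value called also arose outside the repeats. In AAV-Cre WT mice without M3677, SN against STR gave 0.31 for H2-D1 and 0.23 for B2m.

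Mouse as a block ended 4 calls, given with their results, and changed no other call. Same-mouse calls were the same 5 with other pseudocounts. Without the 2 farthest mice there were also 5, of which 3, those of H2-D1, were the same. H2-DMa and the H2-DMb1 relation of STR and SN were lost, and H2-DMb1 in PFC and STR (0.57) and B2m in PFC and SN (0.57) of AAV-Cre mice gained; the cause was not tested. There were 6 calls with clustered relations pooled. Scaling moved the median of all genes by at most 0.04. Leaving out M3677 in genotype tests, the libraries rich in Ttr and each Nestin-Cre WT mouse, and the cluster rule, were chosen after seeing the data. Depth limits Ciita, at 0 counts in 14 libraries.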
